A study of Homo sapiens with 8 samples.

Results

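The effect of knocking down the transcription factor SOX4 was measured in HMLE cells, which are immortalized mammary epithelial cells of human origin, after 16 h of exposure to TGF-β. The comparison sets 2 libraries of cells that carried a lentiviral shRNA targeting SOX4 and received TGF-β against 2 libraries of cells that carried a scrambled shRNA and received TGF-β. These 4 libraries, out of 8 in all, were chosen by their labels. The other 4 libraries hold the same pair of shRNAs in untreated cells and serve as the comparison without TGF-β. All cells had been kept under puromycin at 0.5 µg/mL, so selection is shared by every group. A single shRNA sequence against SOX4 was used, so effects of lower SOX4 and effects of that shRNA on other transcripts cannot be told apart. Nothing in the labels states that a group's libraries were separate cultures, so the p-values measure only the spread between these libraries, which may be technical.

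SOX4 belongs to the SoxC group of HMG-box transcription factors, which bind short A/T-rich DNA motifs and are active in progenitor cells and in many carcinomas. TGF-β is a secreted cytokine that signals through receptor kinases and SMAD proteins, and in mammary epithelial cells it induces epithelial-mesenchymal transition (EMT), in which cells lose epithelial contacts and make vimentin, N-cadherin and extracellular matrix. SOX4 is itself known as a TGF-β target. The comparison therefore addresses which transcripts of TGF-β-treated cells depend on the level of SOX4.

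Expression was deposited as FPKM, that is, reads scaled to transcript length and library size. In 34.14% of the cells of the deposited table the decimal mark had been lost, and it was restored from the whole numbers of reads behind the values. This left 5109 genes that could be tested, out of 25166 genes in the table, nearly all with a single transcript. A library's scale corresponded to 12.6 to 16.8 M reads, of which 3.6 to 4.79 M lay in the fitted genes, with medians of 358 to 478 reads per gene. Replicates did not vary alike. The mean chi-square per gene between the 2 replicates was 18.9 in SOX4-shRNA cells with TGF-β and 3.15 in scrambled-shRNA cells with TGF-β, so the spread shared by all groups in the test may be too small for knockdown cells and too large for scrambled cells.

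The labelled cell type was compared with marker genes. The basal keratins KRT5 and KRT14 together reached 5723 to 5826 FPKM in SOX4-shRNA cells and 5891 to 5984 FPKM in scrambled-shRNA cells with TGF-β, and the epithelial markers EPCAM, CDH1 and KRT7 summed to 2102 to 2470 and 2130 to 2264 FPKM. All 3 leukocyte markers that could be read stayed below 0.5 FPKM in every library and all 5 endothelial markers below 0.2. Of 8 luminal markers 5 could be read, with sums of 0.429 to 0.499 FPKM in SOX4-shRNA cells and 1.03 to 1.55 FPKM in scrambled-shRNA cells with TGF-β. Basal keratins were thus abundant and the readable leukocyte and endothelial markers low, while the marks of TP63, KRT8, KRT18 and GATA3 were not resolved. The likeliest readings of 1 transcript put KRT8 at 361 and 364 FPKM in SOX4-shRNA cells and 362 and 374 FPKM in scrambled-shRNA cells with TGF-β. Those of KRT18 were 408 and 429 FPKM in SOX4-shRNA cells and 491 and 498 FPKM in scrambled-shRNA cells. The luminal sums therefore leave out abundant keratins. Fibroblast markers are given beside the collagens.

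SOX4 was measured first. It stood at 2.37 and 1.88 FPKM in SOX4-shRNA cells with TGF-β, against 18.7 and 17.6 FPKM in scrambled-shRNA cells with TGF-β. Behind these values lay 155 and 133 reads in the knockdown libraries and 1300 and 1128 reads in the scrambled ones. The groups did not overlap, and the knockdown left 11.7% of the scrambled level. On the log2(FPKM + 1) scale used for all tests, which understates changes of genes with low levels, the change was -2.62 ± 0.13 (SE; limma adjusted p = 4.01e-05). In untreated cells SOX4 stood at 0.923 and 1.02 FPKM with the SOX4 shRNA and at 8.74 and 8.04 FPKM with the scrambled shRNA, which left 11.6%. SOX4 in knockdown cells with TGF-β was thus above knockdown cells without it, yet below untreated scrambled cells. The gene has 1 exon on the plus strand at chr6:21593982-21598850 (GRCh37). Annotated genes overlap SOX4, COL1A1, VIM, CDH2, HAS2, PTGS2, IRF1, TNC, ICAM1, TNFAIP2, LTBP2, TWIST1, XYLT1, NID2, FBN2, COL5A3, ADAM19, ADM5, CADM3-AS1, CACNG4 and NRARP on the opposite strand, and CDH11, PGK1, PFKFB4 and SULT1E1 on the same strand. Whether reads were counted by strand is not given in the sources used here, so the values of these genes are uncertain.

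Among the 5109 genes tested, 207 (4.05%) were called on SOX4 knockdown in TGF-β-treated cells, of which 149 fell (2.92%) and 58 rose (1.14%), at a limma adjusted p under 0.05. At an unadjusted p under 0.05, 16.7% of genes passed. The falls were also the deeper changes. A fall of at least 1 log2 unit was called for 58 genes and a rise of at least 1 for 8 genes, while the median change over all tested genes was 0.016. Both knockdown libraries lay below both scrambled libraries for 23.1% of all tested genes and above both for 23.5%, so a lack of overlap on its own is common here. The counts depend on single libraries. Without scrambled TGF-β replicate 1 there were 35 falls and 0 rises, and without its replicate 2 there were 39 falls and 1 rise. Without SOX4-shRNA TGF-β replicate 1 there were 78 falls and 19 rises, and without its replicate 2 there were 74 and 20. A second fit took in all 12001 kept genes, with unresolved decimal marks at their likeliest readings. Its counts are given for a list where the number of calls or the genes called differ. Of the genes named by the rule used here, 35 fell and 22 rose, and 20 of the falls but 0 of the rises stayed called in every alternative that tested them.

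**Figure D1:**
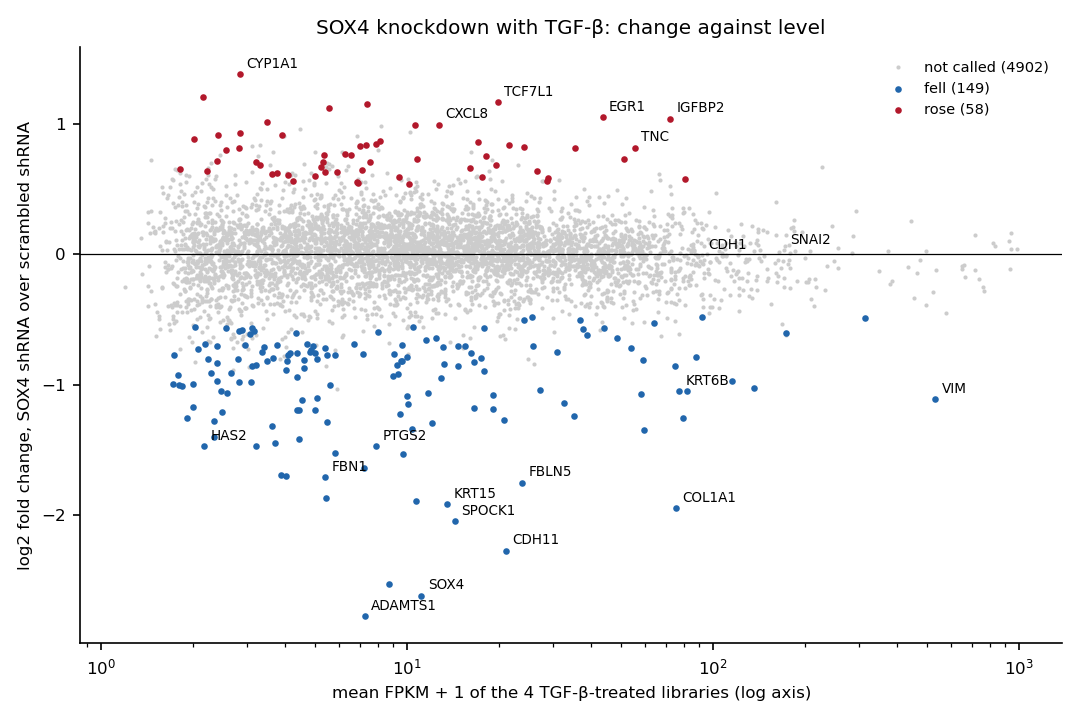
Each point is a tested gene, placed by the mean FPKM + 1 of the 4 TGF-β-treated libraries (log axis) and by its log2 fold change of SOX4 shRNA over scrambled shRNA. Blue genes fell (149), red genes rose (58) and grey genes were not called. The falls reach -2.78 at ADAMTS1 and the rises 1.38 at CYP1A1.

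The deepest fall was that of ADAMTS1, a secreted metalloprotease that cleaves matrix proteoglycans and is known to restrain angiogenesis. It measured 0.836 and 0.86 FPKM in SOX4-shRNA cells, against 12.1 and 11.2 FPKM in scrambled-shRNA cells. The 2 knockdown libraries held 52 and 58 reads and the 2 scrambled ones 802 and 686. The change was -2.78 ± 0.11 (SE; adjusted p = 3.68e-05), larger than that of SOX4 itself. ADAMTS1 lies on the minus strand at chr21:28208074-28217728 (GRCh37) with 9 exons.

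CDH11, a cadherin of mesenchymal and bone-forming cells, measured 6.31 and 6.12 FPKM in SOX4-shRNA cells, against 34.2 and 33.6 FPKM in scrambled-shRNA cells. Its change was -2.27 ± 0.11 (adjusted p = 4.01e-05), and the replicates within each group nearly coincided. SPOCK1, a secreted proteoglycan of the SPARC group, measured 4.75 and 4.42 FPKM in SOX4-shRNA cells and 22.3 and 21.9 FPKM in scrambled-shRNA cells, a change of -2.05 ± 0.11 (adjusted p = 7.36e-05). ADM5, a small gene of the adrenomedullin family, measured 0.899 and 2.42 FPKM in SOX4-shRNA cells and 15.8 and 11.8 FPKM in scrambled-shRNA cells. The long noncoding RNA CADM3-AS1 stood at 1.37 and 1.28 FPKM in SOX4-shRNA cells and 7.33 and 7.68 FPKM in scrambled-shRNA cells. For all 4 genes the knockdown libraries lay below the scrambled ones, and each stayed called in all 18 alternatives.

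**Figure D2:**
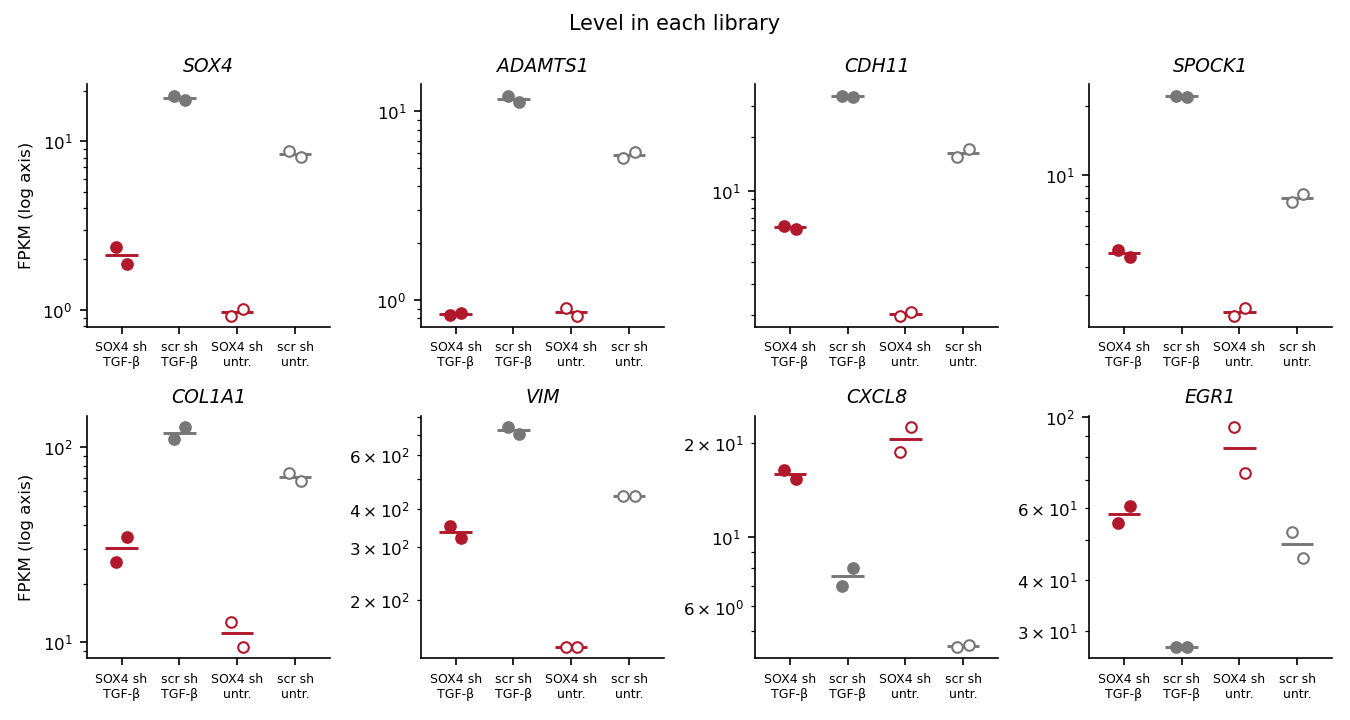
Each panel gives 1 gene's FPKM on a log axis of its own, with a point per library (2 in a group) and a line at the mean. Red is SOX4 shRNA and grey scrambled shRNA, filled points are TGF-β-treated and open points untreated. SOX4, ADAMTS1, CDH11, SPOCK1, COL1A1 and VIM are lower, and CXCL8 and EGR1 higher, in both SOX4-shRNA groups than in the scrambled-shRNA group of the same treatment.

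Most tested genes of fibrillar collagens and related chains fell. Of 16 interstitial collagen genes 9 could be tested, of which 7 fell and 0 rose, beside 2.92% of all tested genes that fell. Their median change was -0.82, against 0.016 over all tested genes. COL1A1, which encodes the main chain of type I collagen, measured 25.9 and 34.8 FPKM in SOX4-shRNA cells, against 110 and 127 FPKM in scrambled-shRNA cells. This is a change of -1.95 ± 0.18 (adjusted p = 0.00125), and the gene lies on the minus strand at chr17:48261462-48278993 (GRCh37) with 51 exons. COL1A2, the partner chain, measured 3.79 and 4.2 FPKM in SOX4-shRNA cells and 13.3 and 13.6 FPKM in scrambled-shRNA cells (-1.53 ± 0.11; adjusted p = 0.000455). Both chains of type I collagen were therefore lower in every knockdown library.

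COL6A1, a chain of the beaded-filament collagen VI, measured 3.06 and 4.03 FPKM in SOX4-shRNA cells, against 14.01 and 17.7 FPKM in scrambled-shRNA cells (-1.89 ± 0.18; adjusted p = 0.00134). COL22A1, a collagen of tissue junctions, measured 1.04 and 0.923 FPKM in SOX4-shRNA cells, against 4.51 and 4.3 FPKM in scrambled-shRNA cells (-1.45 ± 0.13; adjusted p = 0.00108). Smaller falls were called for COL5A3 (-0.82), COL3A1 (-0.69) and COL5A2 (-0.66), which join or regulate collagen fibrils. The other tested members, COL16A1 (0.23) and COL27A1 (0.16), were not called. COL1A1, COL1A2, COL6A1 and COL22A1 stayed called in every alternative that tested them. COL5A3, COL3A1 and COL5A2 lost their calls in the fit of all kept genes and when certain single libraries were left out. Among all kept genes 5 of 14 collagens fell, with COL6A3 added (-3.26; limma adjusted p = 0.00204). COL6A2 had a value of the opposite sign there and was not called (0.69; limma adjusted p = 0.290).

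Several of these genes also mark fibroblasts. The 7 of 8 fibroblast markers that could be read summed to 35.0 to 44.6 FPKM in SOX4-shRNA cells with TGF-β and to 133 to 152 FPKM in scrambled-shRNA cells with TGF-β, most of it COL1A1. Of these markers, LUM and PDGFRA did not exceed 0.105 FPKM in the TGF-β-treated libraries and DCN could not be read. PDGFRB stood at 0.93 and 1.065 FPKM in SOX4-shRNA cells and 1.59 and 2.18 FPKM in scrambled-shRNA cells with TGF-β. TWIST1 stood at 2.64 and 2.52 FPKM in SOX4-shRNA cells and 4.37 and 5.22 FPKM in scrambled-shRNA cells. The part of fibroblast-like cells in these falls was not tested. In bulk samples fewer cells of a type and less RNA per cell cannot be told apart.

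Elastic-fibre genes fell in part beside the collagens. Of 6 tested genes of the elastic fibre and crosslinking list 3 fell and 1 rose, with a median of -0.49. The fit of all kept genes called 4 falls and 2 rises of 15, and MFAP5 was the added rise (3.07; limma adjusted p = 0.0265). The added falls were those of MFAP2 (-6.62; limma adjusted p = 0.000746) and of FN1, given below, while FBN2 lost its call. MFAP5 and MFAP2 were each represented by 1 of several transcripts. FBLN5, which guides the assembly of elastic fibres, measured 9.18 and 10.7 FPKM in SOX4-shRNA cells, against 35.6 and 35.8 FPKM in scrambled-shRNA cells (-1.75 ± 0.15; adjusted p = 0.000852). The microfibril gene FBN1 measured 1.44 and 1.61 FPKM in SOX4-shRNA cells, against 7.19 and 7.34 FPKM in scrambled-shRNA cells (-1.71 ± 0.12; adjusted p = 0.000455). Its relative FBN2 changed by -0.71, a call kept in 11 of 18 alternatives. The crosslinking enzyme genes LOXL1 (-0.26) and LOXL2 (0.20) were not called. The rise among the 6 tested genes was that of TNC, which encodes the matrix glycoprotein tenascin-C. TNC measured 66.2 and 73.0 FPKM in SOX4-shRNA cells and 37.8 and 40.1 FPKM in scrambled-shRNA cells (0.82 ± 0.12; adjusted p = 0.00887), so matrix genes did not all move one way. Without scrambled TGF-β replicate 1 its value was 0.78 (adjusted p = 0.122), and without replicate 2 it was 0.86 (adjusted p = 0.0992).

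Of 9 tested proteoglycan and hyaluronan genes 5 fell and 0 rose, with a median of -0.90. Beside SPOCK1 these were BGN, SRGN, HAS2 and XYLT1. BGN, which encodes the collagen-binding proteoglycan biglycan, measured 4.37 and 5.0 FPKM in SOX4-shRNA cells and 11.7 and 12.8 FPKM in scrambled-shRNA cells (-1.22 ± 0.17; adjusted p = 0.00743). HAS2, which synthesizes hyaluronan, measured 0.0698 and 0.236 FPKM in SOX4-shRNA cells, from 3 and 11 reads, and 1.99 and 2.39 FPKM in scrambled-shRNA cells, from 91 and 101 reads. The change of HAS2 was -1.47 ± 0.15 (adjusted p = 0.00176) and rests on few reads in knockdown cells. XYLT1, which starts glycosaminoglycan chains, stood at 10.9 and 11.9 FPKM in SOX4-shRNA cells and 22.9 and 21.3 FPKM in scrambled-shRNA cells (-0.90 ± 0.11; adjusted p = 0.0049). The calls of BGN and XYLT1 were lost without either scrambled TGF-β library, at -1.16 to -1.28 and -0.85 to -0.95. SRGN, an intracellular proteoglycan gene of secretory granules, stood at 0.272 and 1.69 FPKM in SOX4-shRNA cells and 4.41 and 5.68 FPKM in scrambled-shRNA cells. Its knockdown replicates lay apart, and its call was lost with a pseudocount of 0.1 and without scrambled TGF-β replicate 1 (adjusted p = 0.111) or 2 (adjusted p = 0.199). With single libraries left out, 2 to 5 of the 9 genes fell. The cell-surface proteoglycan genes SDC4 (0.36) and GPC1 (0.14), and AGRN (0.22) and CHST3 (-0.13), were not called. The fit of all kept genes called 5 falls of 16, without BGN and SRGN. It added VCAN (-1.90; limma adjusted p = 0.0121) and CD44 (-0.59; limma adjusted p = 0.0171). The readings of VCAN held a posterior of 0.9434, below the 0.95 set for the test.

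Basement membrane genes were mostly not called. Of 10 tested, 2 fell, the linker genes NID1 (-0.77) and NID2 (-0.98), and the median was -0.11. Without scrambled TGF-β replicate 1 or 2 the adjusted p was 0.217 and 0.199 for NID1 and 0.0654 and 0.11 for NID2, so 0 to 2 fell with single libraries left out. Among all kept genes 0 of 17 fell. COL4A1, the most abundant of them, stood at 149 and 145 FPKM in SOX4-shRNA cells and 132 and 129 FPKM in scrambled-shRNA cells and was not called (0.17 ± 0.10; adjusted p = 0.459). The laminin genes LAMB1 (-0.19) and LAMC1 (-0.13) were not called either.

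**Figure D3:**
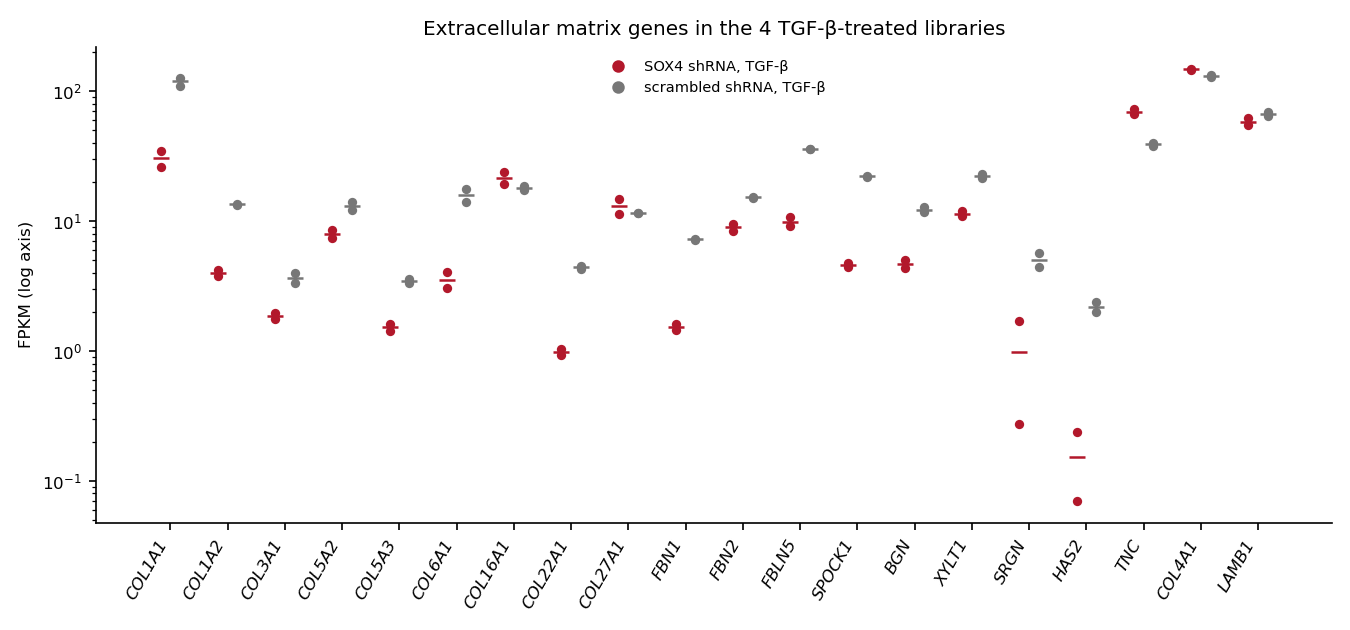
FPKM (log axis) of 20 extracellular matrix genes in the 4 TGF-β-treated libraries, with SOX4 shRNA in red left of scrambled shRNA in grey, 2 points per group and a line at the group mean. From COL1A1 to HAS2 the red points lie below the grey ones except at COL16A1 and COL27A1. TNC lies above, and COL4A1 and LAMB1 were not called.

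Among matrix proteases, MMP10, a stromelysin, fell to 1.33 and 1.482 FPKM in SOX4-shRNA cells, against 5.75 and 5.1 FPKM in scrambled-shRNA cells (-1.41 ± 0.16; adjusted p = 0.00308), a call lost without scrambled TGF-β replicate 1 (-1.34; adjusted p = 0.0508). It was 1 of 7 tested genes for metalloproteinases and their inhibitors that changed, and 3 of 10 fell among all kept genes. The gelatinase gene MMP9 stood at 25.95 and 38.9 FPKM in SOX4-shRNA cells and 20.9 and 21.5 FPKM in scrambled-shRNA cells (0.56; adjusted p = 0.252), and the membrane protease gene MMP14 was at -0.21. Of 7 ADAM and ADAMTS genes 3 fell. Beside ADAMTS1 these were ADAMTS12 (-0.80) and ADAM19 (-0.56), while ADAM10, ADAM17, ADAMTS6 and ADAMTS15 were not called. ADAMTS15 had a value of the opposite sign (0.55; adjusted p = 0.0693). ADAMTS12 stayed called in 12 of 17 alternatives and ADAM19 in 9 of 18, with 1 to 3 falls when single libraries were left out and 1 of 11 among all kept genes.

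Mesenchymal genes of EMT were lower in part. Of 9 tested mesenchymal markers 4 fell and 1 rose, with a median of -0.51. VIM, which encodes the intermediate filament protein vimentin, measured 351 and 320 FPKM in SOX4-shRNA cells, against 744 and 708 FPKM in scrambled-shRNA cells. The change of VIM was -1.11 ± 0.10 (adjusted p = 0.000909), and the gene lies on the plus strand at chr10:17270240-17279592 (GRCh37) with 10 exons. CDH2, which encodes N-cadherin, measured 11.1 and 10.1 FPKM in SOX4-shRNA cells, against 26.4 and 24.6 FPKM in scrambled-shRNA cells (-1.19 ± 0.14; adjusted p = 0.00308), with an adjusted p of 0.0594 without scrambled TGF-β replicate 1. CDH11 and FBN1 were the other falls and TNC the rise. MMP9, MMP14, the surface glycoprotein gene THY1 (-0.51; adjusted p = 0.150) and the fibronectin-receptor gene ITGA5 (0.11) were not called. Among all kept genes 7 of 18 mesenchymal markers fell and 1 rose.

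Some abundant genes lay outside the test because their reads could not be resolved, and are given as values. The fibronectin gene FN1, represented by 1 of its 6 transcripts, stood at 968 and 1106 FPKM in SOX4-shRNA cells and 2239 and 2193 FPKM in scrambled-shRNA cells, of which 3 of the 4 cells were intact. In the fit of all kept genes, where 1.48% fell and 0.533% rose, its change was -1.10 ± 0.10 (limma adjusted p = 0.0115). TGFBI, whose matrix protein takes its name from TGF-β, stood at 1023 and 1112 FPKM in SOX4-shRNA cells and 999.4 and 1009 FPKM in scrambled-shRNA cells. FN1 was thus lower in both knockdown libraries, and TGFBI was higher in value in both and not called (adjusted p = 0.75).

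Transcription factors that drive EMT were mostly not called. Of 4 tested, 1 fell, the bHLH factor gene TWIST1, at 2.64 and 2.52 FPKM in SOX4-shRNA cells and 4.37 and 5.22 FPKM in scrambled-shRNA cells (-0.69 ± 0.13; adjusted p = 0.0262). That call was lost in 11 of 18 alternatives, and 0 of 10 such genes were called among all kept genes. SNAI2, the most abundant, stood at 175 and 168 FPKM in SOX4-shRNA cells and 172 and 163 FPKM in scrambled-shRNA cells, with a difference of 0.03 and a 95% interval of ± 0.23. The forkhead factor genes FOXC1 (-0.41) and FOXC2 (-0.30) were not called. ZEB1 is not reported with a value because its decimal marks were not resolved.

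Epithelial junction and identity genes were mostly not called. Of 14 tested, 1 rose and 0 fell, with a median of 0.15. CDH1, which encodes E-cadherin, stood at 95.4 and 85.7 FPKM in SOX4-shRNA cells and 90.6 and 90.7 FPKM in scrambled-shRNA cells, a difference of -0.003 with a 95% interval of ± 0.24. The tight-junction gene CLDN1 rose to 34.1 and 28.8 FPKM in SOX4-shRNA cells, against 20.5 and 19.0 FPKM in scrambled-shRNA cells (0.64 ± 0.12; adjusted p = 0.0242), a call lost in 7 of 18 alternatives. EPCAM stood at 99.4 and 69.6 FPKM in SOX4-shRNA cells and 59.1 and 55.8 FPKM in scrambled-shRNA cells (0.53; adjusted p = 0.156), above in both libraries but with a wide spread. The epithelial regulator gene GRHL2 (0.29) and the 3 tested desmosome genes, DSG2, DSG3 and PKP3 (0.02 to 0.11), were not called.

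Genes of the TGF-β pathway itself showed few calls. Of 7 tested ligand, receptor and SMAD genes, 0 were called with limma and 0 had an unadjusted p under 0.05, with values from -0.48 at GDF15 to 0.22 at SMAD4. TGFB1, which encodes the ligand, stood at 52.5 and 63.6 FPKM in SOX4-shRNA cells and 56.1 and 61.1 FPKM in scrambled-shRNA cells (-0.02). Of 14 TGF-β and SMAD target genes 2 fell, LBH and ADAM19, and 1 rose, LTBP2, with a median of -0.005. The fit of all kept genes called 3 falls and 1 rise of 26 such targets. LBH, a transcription cofactor gene of limb, heart and basal mammary cells, measured 1.96 and 2.02 FPKM in SOX4-shRNA cells, against 8.51 and 6.81 FPKM in scrambled-shRNA cells (-1.53 ± 0.16; adjusted p = 0.0022). LTBP2, of the latent TGF-β binding protein group, measured 21.9 and 24.3 FPKM in SOX4-shRNA cells and 14.1 and 13.7 FPKM in scrambled-shRNA cells (0.69 ± 0.12; adjusted p = 0.0188). INHBA (-0.26), CCN2 (-0.14) and SMURF2 (-0.25), which encode an activin chain, a matricellular protein and a ubiquitin ligase, were not called.

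Keratins were tested for 4 of 13 members, of which 2 fell. KRT15, a keratin of basal progenitor-like cells, measured 4.41 and 4.87 FPKM in SOX4-shRNA cells, against 19.4 and 21.2 FPKM in scrambled-shRNA cells (-1.92 ± 0.12; adjusted p = 0.000223). KRT6B, a keratin of activated epidermis, measured 48.0 and 50.9 FPKM in SOX4-shRNA cells and 98.0 and 108 FPKM in scrambled-shRNA cells (-1.05 ± 0.11; adjusted p = 0.00203). Both fell in every alternative. The most abundant basal keratins kept their decimal marks and lay outside the test of resolved genes. KRT5 stood at 2886 and 2951 FPKM in SOX4-shRNA cells and 3295 and 3335 FPKM in scrambled-shRNA cells (adjusted p = 0.631 in the fit of all kept genes). KRT14 stood at 2837 and 2875 FPKM in SOX4-shRNA cells and 2596 and 2649 FPKM in scrambled-shRNA cells (adjusted p = 0.837), and neither was called. KRT17, with 3 of 4 cells intact, was lower at 947 and 1027 FPKM in SOX4-shRNA cells, against 1966 and 2024 FPKM in scrambled-shRNA cells (-1.02; adjusted p = 0.0236). KRT6A, with 2 of 4 cells intact, stood at 897 and 936 FPKM in SOX4-shRNA cells and 1652 and 1683 FPKM in scrambled-shRNA cells (-0.86; adjusted p = 0.00984). Among all kept genes 4 of 12 keratins fell and 1 rose. Of 5 cornified-envelope genes 2 fell and 1 rose. SPRR1B stood at 34.9 and 30.2 FPKM in SOX4-shRNA cells and 80.1 and 88.4 FPKM in scrambled-shRNA cells (-1.35 ± 0.13; adjusted p = 0.00151), and IVL, for involucrin, changed by -0.80, while SPRR2D changed by 0.69. Among all kept genes 1 of 14 cornified-envelope genes fell and 0 rose. KRT6A, KRT6B, KRT17, SPRR1B, SPRR2D, CXCL2 and CXCL3 have near-identical relatives whose reads the authors' counting could have split, so their values are uncertain.

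Inflammatory genes were among the rises. Of 6 tested chemokine genes 3 rose and 0 fell, beside 1.14% of all tested genes that rose, with a median of 0.91. CXCL8, the neutrophil attractant interleukin-8, measured 16.5 and 15.4 FPKM in SOX4-shRNA cells, against 6.98 and 7.99 FPKM in scrambled-shRNA cells (0.997 ± 0.13; adjusted p = 0.00496). The gene lies on the plus strand at chr4:74606236-74609433 (GRCh37) with 4 exons. CXCL2, of the same family, measured 3.5 and 4.68 FPKM in SOX4-shRNA cells and 1.75 and 1.6 FPKM in scrambled-shRNA cells (0.92 ± 0.14; adjusted p = 0.0112). CX3CL1, a membrane-bound chemokine gene, measured 2.12 and 2.19 FPKM in SOX4-shRNA cells and 0.832 and 0.522 FPKM in scrambled-shRNA cells (0.92 ± 0.18; adjusted p = 0.0308). The scavenger receptor gene ACKR3 (0.91; adjusted p = 0.0832) was not called, and CXCL3 (-0.22) and CCL28 (-0.24) had values below 0. With single libraries left out, 0 to 4 of the 6 were called as rises, and CXCL8 lost its call without scrambled TGF-β replicate 1 (0.91; adjusted p = 0.0835). Among all kept genes 1 of 9 chemokine genes rose and 1 fell. The fall was that of CXCL1 (-0.97; adjusted p = 0.0376), whose readings held a posterior of 0.946, below the 0.95 set for the test.

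Of 8 tested NF-κB target genes 3 rose and 1 fell, with a median of 0.56. The rises were those of TNFAIP2 (1.12 ± 0.19; adjusted p = 0.0179), the adhesion molecule gene ICAM1 (0.76 ± 0.15; adjusted p = 0.0304) and NFKBIA, which encodes the inhibitor of NF-κB itself. NFKBIA stood at 93.5 and 98.1 FPKM in SOX4-shRNA cells and 60.5 and 67.1 FPKM in scrambled-shRNA cells (0.58 ± 0.12; adjusted p = 0.0404). The fall was that of PTGS2, the inducible cyclooxygenase that makes prostaglandins, which measured 3.02 and 3.41 FPKM in SOX4-shRNA cells, against 10.7 and 10.6 FPKM in scrambled-shRNA cells (-1.47 ± 0.13; adjusted p = 0.000882). PTGS2 thus moved against the other called members, and it alone of these 4 stayed called in all 18 alternatives. With single libraries left out 0 to 3 of the 8 rose, and among all kept genes 1 of 16 rose and 2 fell, so the balance between rises and falls depends on which genes are read. Of 4 tested interleukin and cytokine genes 0 were called. IL1A stood at 81.9 and 76.1 FPKM in SOX4-shRNA cells and 54.2 and 51.6 FPKM in scrambled-shRNA cells (0.57; adjusted p = 0.0915). IL6 was at 0.68 (adjusted p = 0.201). Among all kept genes 1 of 13 such genes rose and 1 fell. The rise was that of IL32 (0.97, limma adjusted p = 0.0256) and the fall that of IL11 (-3.17, limma adjusted p = 0.0129). The readings of IL32 and IL11 held posteriors of 0.9125 and 0.8943, below the level set for the test.

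Of 9 interferon-response genes 1 rose, IRF1, a transcription factor gene induced by interferon and NF-κB. IRF1 measured 12.6 and 13.5 FPKM in SOX4-shRNA cells, against 6.0 and 6.17 FPKM in scrambled-shRNA cells (0.99 ± 0.12; adjusted p = 0.00319). IFI44 and IFIH1, also interferon-induced, stood above scrambled cells in both knockdown libraries, but the knockdown replicates lay far apart. IFI44 had 25.1 and 14.4 FPKM in SOX4-shRNA cells and 11.1 and 10.1 FPKM in scrambled-shRNA cells (adjusted p = 0.173). Of 9 immediate early factor genes 1 rose. EGR1, a zinc-finger factor gene of the growth-factor response, measured 55.1 and 60.5 FPKM in SOX4-shRNA cells, against 27.3 and 27.3 FPKM in scrambled-shRNA cells (1.05 ± 0.14; adjusted p = 0.00711). FOS (-0.28), JUN (0.43) and FOSL2 (0.57) were not called. Without scrambled TGF-β replicate 1 or 2 the adjusted p was 0.0615 and 0.0532 for IRF1 and 0.0852 and 0.0926 for EGR1.

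Other named rises had metabolic, hormonal or developmental roles. CYP1A1, the xenobiotic-metabolizing enzyme gene switched on by the aryl hydrocarbon receptor, had the largest rise. It measured 2.56 and 3.7 FPKM in SOX4-shRNA cells, from 86 and 135 reads, and 0.559 and 0.575 FPKM in scrambled-shRNA cells, from 20 and 19 reads (1.38 ± 0.20; adjusted p = 0.00809). Without either scrambled TGF-β library its adjusted p was 0.0852 and 0.0919. Of 4 tested genes of that receptor pathway CYP1A1 and SULT1E1 (0.77), an estrogen sulfotransferase gene, rose, while CYP1B1 (-0.14) and AHR (0.42) were not called. The count was 0 of 7 among all kept genes. Of 13 Wnt pathway genes 2 rose and 0 fell. TCF7L1, a Wnt-regulated transcriptional repressor gene, measured 23.7 and 29.0 FPKM in SOX4-shRNA cells, against 10.4 and 11.8 FPKM in scrambled-shRNA cells (1.17 ± 0.18; adjusted p = 0.0126). SFRP1, a secreted Wnt inhibitor gene, measured 65.4 and 60.3 FPKM in SOX4-shRNA cells and 37.6 and 37.2 FPKM in scrambled-shRNA cells (0.73 ± 0.10; adjusted p = 0.00711). The Wnt inhibitor gene DKK1 (-0.40; adjusted p = 0.0717) was not called. Of 22 Wnt pathway genes among all kept genes, 1 rose, SFRP1, and 1 fell, while TCF7L1 lost its call. The fall was that of a gene tested in the first fit but not called there. IGFBP2, which binds insulin-like growth factors, measured 79.7 and 114 FPKM in SOX4-shRNA cells and 44.4 and 47.2 FPKM in scrambled-shRNA cells (1.04 ± 0.21; adjusted p = 0.0319). IGFBP4 of the same group changed by -0.75. The fit of all kept genes called 0 rises and 1 fall of 9 IGF pathway genes. The adhesion receptor gene TENM2 (1.02), the channel subunit gene CACNG4 (1.21), the sphingosine phosphatase gene SGPP2 (1.15) and the calpain gene CAPN8 (0.93) also rose.

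**Figure D4:**
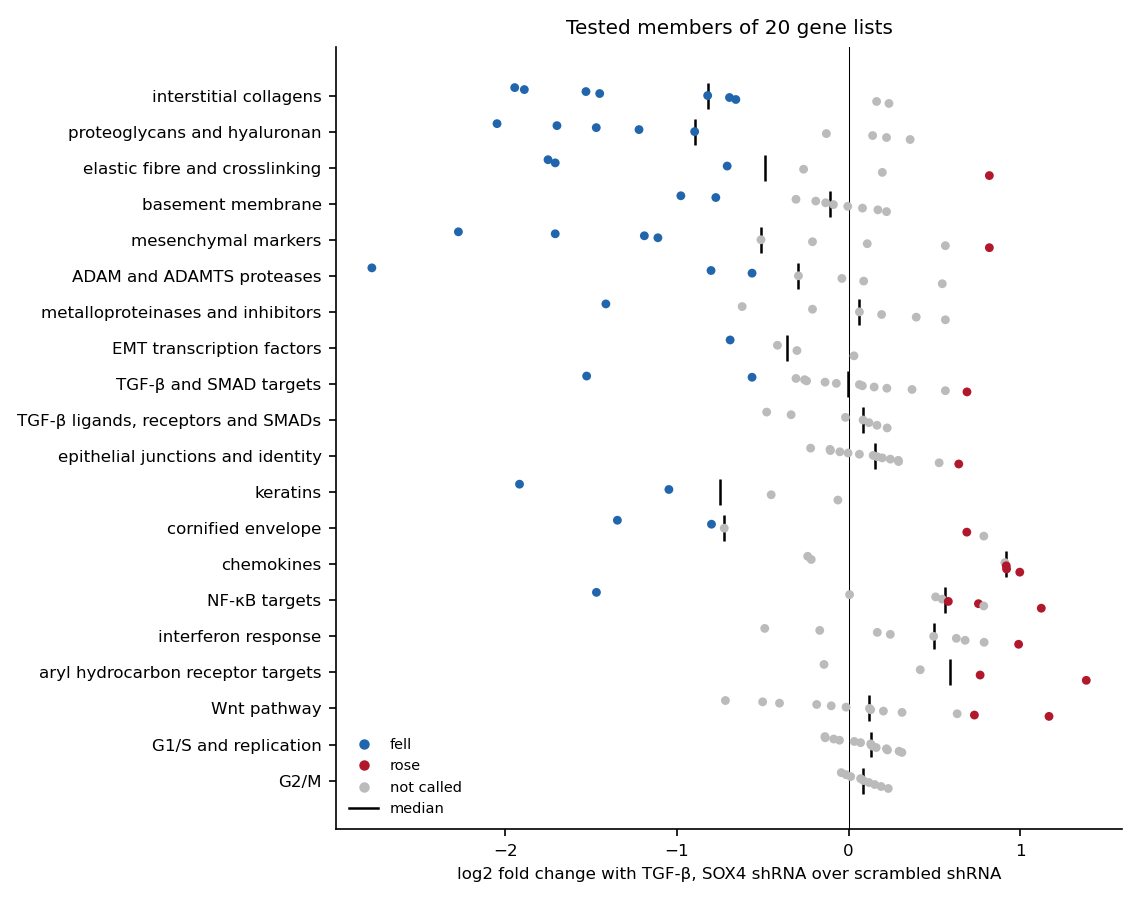
Each point is the log2 fold change with TGF-β, SOX4 shRNA over scrambled shRNA, of a tested member of 20 gene lists (rows). Blue points fell, red points rose, grey points were not called, and the black bar is the list's median. Collagens and proteoglycans lie furthest to the left with medians of -0.82 and -0.90, chemokines furthest to the right with 0.91, and cell-cycle lists around 0.

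Cell-cycle genes showed no calls with limma, neither among 14 genes of G1/S and replication (values from -0.14 to 0.31) nor among 9 genes of G2/M (-0.04 to 0.23), and 0 of either had an unadjusted p under 0.05. Likewise 0 genes were called among 7 YAP and TEAD pathway genes, 6 MAPK feedback genes, 4 integrin genes and 4 genes of the unfolded protein and ATF4 response, of which 2, 2, 1 and 2 in that order had an unadjusted p under 0.05. Of 6 Notch pathway genes 1 rose, the feedback inhibitor gene NRARP (0.67), and of 8 semaphorin and plexin genes 1 fell, the guidance cue gene SEMA3A (-0.71). Of 7 angiogenic factor genes 1 fell, ADAMTS1. The fit of all kept genes called 0 of 13 Notch pathway genes. It called 1 rise and 0 falls of 16 semaphorin and plexin genes, and 1 rise and 1 fall of 17 angiogenic factor genes. Of 9 genes of glycolysis and hypoxia 2 fell. PGK1, a glycolytic kinase gene, measured 84.0 and 93.7 FPKM in SOX4-shRNA cells, against 179 and 184 FPKM in scrambled-shRNA cells (-1.03 ± 0.11; adjusted p = 0.00183), and PFKFB4, a regulator of glycolysis, changed by -1.08. HK2 (0.48; adjusted p = 0.0563), SLC2A1 (0.09) and ENO2 (0.00) were not called, so the calls were confined to 2 of the 9 tested glycolysis and hypoxia genes. The fit of all kept genes also called 2 falls, of 16 such genes, but PFKFB4 lost its call there. Its falls were those of PGK1 and LDHA (-1.07; limma adjusted p = 0.0128). The readings of LDHA held a posterior of 0.9451, below the 0.95 set for the test. No actin cytoskeleton gene could be tested, while the fit of all kept genes called 1 rise and 0 falls of 14.

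Other SOX genes were compared because the SoxC relatives of SOX4 can act on the same targets. SOX12 stood at 2.62 and 3.43 FPKM in SOX4-shRNA cells and 2.57 and 2.42 FPKM in scrambled-shRNA cells (0.20; adjusted p = 0.668). SOX7, SOX9, SOX13 and SOX15 were not called either, with values from -0.28 to 0.47, so SOX4 was the single called gene of 6 tested. Of 9 tested genes reported elsewhere as SOX4 targets, 1 rose, TNC, and 0 fell, while among all kept genes 1 of 16 rose and 2 fell. EGFR, the epidermal growth factor receptor gene, was one such fall, at 30.7 and 31.2 FPKM in SOX4-shRNA cells and 46.4 and 47.4 FPKM in scrambled-shRNA cells by their likeliest readings (-0.59; adjusted p = 0.0121). The other fall was that of a gene tested in the first fit but not called there. TEAD1, a transcription factor gene of the Hippo pathway, stood at 41.6 and 37.8 FPKM in SOX4-shRNA cells and 31.8 and 30.8 FPKM in scrambled-shRNA cells (0.33; adjusted p = 0.167). SEMA3C, a semaphorin gene, stood at 99.9 and 84.6 FPKM in SOX4-shRNA cells and 119 and 117 FPKM in scrambled-shRNA cells (-0.35; adjusted p = 0.304). The Wnt receptor gene FZD8 stood at 0.911 and 1.15 FPKM in SOX4-shRNA cells and 2.12 and 2.56 FPKM in scrambled-shRNA cells (-0.72; adjusted p = 0.124). For all 3 genes the groups did not overlap, as for many genes in the table, yet the adjusted p missed the threshold.

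The knockdown was next set beside the knockdown in untreated cells, which used 4 other libraries. There 169 genes fell (3.31%) and 58 rose (1.14%) of 5105 tested. Of the 5099 genes tested in both, 145 fell with TGF-β, 168 fell without it and 103 fell in both, which is 71.0% and 61.3% of each list. For rises the counts were 58, 58 and 27, or 46.6% of each, and 0 genes were called in opposite directions. All 145 falls with TGF-β and 56 of the 58 rises had the same sign without it. Across genes the changes correlated with a Pearson r of 0.731 and a Spearman rho of 0.606, as a description over genes, which are not independent replicates.

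The size of several changes differed in value between the treatments, with no call. The test of the difference itself called 0 of 5101 genes with limma, while 142 (2.78%) had an unadjusted p under 0.05. The smallest p-values belonged to ADAMTS1 and SULT1E1, both with adjusted p = 0.742. ADAMTS1 changed by -2.78 with TGF-β and -1.88 without it, a difference of -0.89 with a 95% interval of ± 0.37. Knockdown cells held 0.836 and 0.86 FPKM of ADAMTS1 with TGF-β and 0.906 and 0.826 FPKM untreated, whereas scrambled cells held 12.1 and 11.2 FPKM with TGF-β and 5.66 and 6.1 FPKM untreated. SPOCK1 (-2.05 and -1.34) and COL22A1 (-1.45 and -0.53) likewise had deeper falls with TGF-β in value. Values of the opposite kind were those of CXCL8, which rose by 0.997 with TGF-β and 1.98 without it, and of SULT1E1 (0.77 and 1.87). LTBP2 and SPRR2D rose with TGF-β and stood at -0.15 and -0.34 without it, with differences of 0.84 ± 0.38 and 1.03 ± 0.44 (95% intervals). COL1A1 and VIM, by contrast, changed by -2.57 and -1.65 without TGF-β, and by less in value with it.

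**Figure D5:**
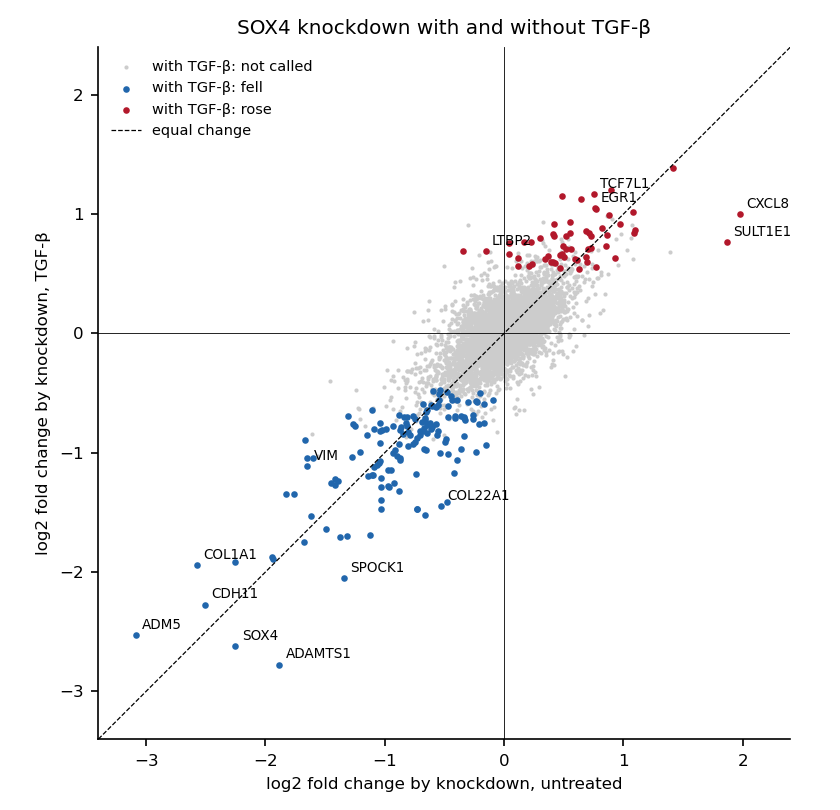
Log2 fold change by SOX4 knockdown in TGF-β-treated cells (vertical) against untreated cells (horizontal), 1 point per gene tested in both. Blue and red genes fell and rose with TGF-β, and the dashed line marks equal change. The blue points lie left of 0 throughout, and ADAMTS1, SPOCK1 and COL22A1 sit below the line while CXCL8 and SULT1E1 sit to its right.

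Levels with TGF-β can be set beside those of untreated scrambled cells, in examples chosen after their values were seen. In knockdown cells with TGF-β, COL1A1, CDH11, ADAMTS1, SPOCK1, FBN1 and VIM all stood below untreated scrambled cells, at means of 30.3, 6.22, 0.848, 4.58, 1.53 and 336 FPKM, against 70.4, 16.3, 5.88, 7.97, 4.22 and 440 FPKM in that order. LBH, COL22A1, MMP10 and XYLT1 instead stood between the untreated and the TGF-β-treated scrambled cells. MMP10, for example, had 1.41 ± 0.106 FPKM in knockdown cells with TGF-β, against 5.42 ± 0.459 FPKM in scrambled cells with TGF-β and 0.631 FPKM on average in untreated scrambled cells (SD, n = 2).

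Promoters of the called genes were searched for the letters of the core SOX motif, to show whether genes that fell together held it. The letters searched were AACAAAG and AACAATG on both strands, in RefSeq promoters (GRCh38.p14) from 250 bases before to 50 bases after each gene's start. They were found in 5 of 112 promoters of genes that fell (4.46%), in 3 of 44 of genes that rose (6.82%), in 180 of 4068 of all tested genes (4.42%) and in 8.36% of all 27305 promoters in the table. The share among falls was thus close to that of the tested genes, and no test was made. The 6 matches before the start are shown with 25 bases on either side, 5′ to 3′ on the gene's strand, with the motif or its reverse complement in capitals. CYP27C1, HES2, TSPAN13 and TTLL7 fell, and NRARP and SGPP2 rose.
CYP27C1 (chr2:127220281-127220337, minus strand): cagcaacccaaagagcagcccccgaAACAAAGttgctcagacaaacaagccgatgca
HES2 (chr1:6419988-6420044, minus strand): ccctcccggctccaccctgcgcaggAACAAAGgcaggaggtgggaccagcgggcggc
TSPAN13 (chr7:16753657-16753713, plus strand): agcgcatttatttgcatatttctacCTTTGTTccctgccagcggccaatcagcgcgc
TTLL7 (chr1:83999226-83999282, minus strand): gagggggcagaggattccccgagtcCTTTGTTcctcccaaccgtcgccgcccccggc
NRARP (chr9:137302295-137302351, minus strand): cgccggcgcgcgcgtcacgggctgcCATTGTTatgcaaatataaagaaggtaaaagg
SGPP2 (chr2:222423796-222423852, plus strand): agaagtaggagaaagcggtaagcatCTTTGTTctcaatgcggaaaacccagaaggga
The motif lay 13 to 167 bases before the start in these 6 genes, and DOCK4 and SMO held theirs after the start. CYP27C1, a cytochrome P450 gene, had the largest change among them, from 2.33 and 2.66 FPKM in SOX4-shRNA cells and 10.4 and 9.4 FPKM in scrambled-shRNA cells (-1.64). The promoters of SOX4, FBLN5, FBN1, CYP1A1, TCF7L1 and EGR1 held no match. A match is a description of letters, and no match says only that they are not in this window. The AP-1 letters TGAGTCA were in 6.25% of promoters of genes that fell, 9.09% of those of genes that rose and 3.07% of those of all tested genes, with a median G + C content of 66.0%, 67.0% and 66.0%.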

How the data were processed

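RNA of HMLE cells was sequenced on a NextSeq 500, per the labels' protocols, in 8 libraries (2 in each of 4 groups). The submitters' processing notes name the hg19 build together with Cuffdiff, Cufflinks 2.2.1 and TopHat2 2.0.9. The labels give polyA RNA as the molecule and a ribosomal-depletion kit as the protocol, and which one applies was not settled. The deposited values are FPKM per RefSeq transcript (48175 transcripts, 97.76% matched to a symbol, 25166 genes). In 34.14% of cells the decimal mark was lost, and in 13.91% an exponent stood for a value below 1e-04, set to 0. Since each value of a single-transcript gene equals its reads, a whole number, scaled by library and transcript length, marks were restored for such genes where at least 6 of 8 cells came out whole within 0.003 reads plus rounding. This succeeded for 5120 of 5437 genes searched (94.17%) and for 12 with random last digits. A comparison was tested where the likeliest readings held a posterior of at least 0.95. Tested on simulated data, 597 of 600 genes could be tested and 100% of these were right. The simulated reads were drawn for genes already restored, so this share does not measure accuracy over the whole deposited table.

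limma 3.58.1 (R 4.3.3) was fitted with an intensity trend on log2(FPKM + 1) over all 8 libraries with 4 group means and 4 residual degrees of freedom, keeping genes of at least 1 FPKM in at least 2 libraries. p-values were adjusted by Benjamini-Hochberg over all tested genes, with a threshold of 0.05. On data simulated for this comparison, 78.8% of 99 genes changed by 1 log2 unit, 97.0% of 101 changed by 2 and 0.287% of 4879 unchanged genes were called. The simulation gave all genes and groups the same dispersion, whereas replicates in the data varied unequally between groups. These rates therefore need not hold for the deposited data. Intervals and read numbers cover counting error and the spread between these libraries only. Python 3.11.15 with numpy 2.4.6, scipy 1.17.1, pandas 2.3.3 and matplotlib 3.10.9 did the rest.

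Named genes were SOX4, up to 12 called genes in each direction with the largest change and separate groups, up to 4 members of each list with the smallest p, a set of EMT, keratin and SOX genes, and the 5 smallest p of the difference between treatments in each direction. Other tested members of a list are given with their values where the list is described. The comparison and the 35 gene lists were chosen with earlier results of these data known. Coordinates are from GENCODE release 44 mapped to GRCh37, and promoters from RefSeq. Alternatives covered the pseudocount, the filter, scaling, the trend, robust variance, only the TGF-β-treated libraries, a replicate block, voom on whole reads, all kept genes at their likeliest readings, and each library left out in turn.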

Additional observations from a re-analysis of the deposited data

How the results depend on the processing

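The 207 calls of SOX4 knockdown with TGF-β numbered 131 with no filter on low values, 131 with a filter at 5 FPKM and 108 with the replicate block. With each library left out in turn they numbered 35 to 228. The other alternatives gave 155 to 242 calls, including 242 among all kept genes, which held 75 of the 207. SOX4 was called in all 18 alternatives, at -3.10 to -2.50, and no result changed sign. Of the other named genes, at most 37 lost a call under any 1 alternative, which was leaving out scrambled TGF-β replicate 1. The test of the difference between treatments called 0 genes except among all kept genes, where it called 42; those genes include unresolved decimal marks, and the cause was not tested. The replicate numbers did not pair the samples, since the correlation of same-numbered deviations was 0.38 between the 2 TGF-β-treated groups but -0.63 to 0.57 over the other pairs of groups, so the replicate block (108 calls) shares only a number. With 2 libraries in each group and unequal spread between replicates, a gene that missed the threshold is not shown to be unaffected, and most genes with several transcripts or unresolved marks entered only the fit of all kept genes.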
